A study of Mus musculus with 2 samples.

Results

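Matrix metalloproteinases (MMPs) and their tissue inhibitors (TIMPs) were examined in mammary tumors from GW9662-treated animals and from control animals. The set held 10 genes, the proteases Mmp2, Mmp3, Mmp9, Mmp11, Mmp13 and Mmp14 and the inhibitors Timp1, Timp2, Timp3 and Timp4. Every probe set, a group of short oligonucleotides that together read part of a transcript, was taken if the platform annotation tied it to just 1 of these genes. This gave 22 of the 22690 probe sets on the array, and the 10 genes were 10 of 12393 named genes. The proteases had 9 probe sets and the inhibitors had 13. No probe set was found only under an older symbol (0), and none named a member together with another gene (0).

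Both groups were female wild-type FVB mice that received 15 mg medroxyprogesterone acetate, a long-acting progestin, from 5 weeks of age, followed by 4 doses of 1 mg dimethylbenz(a)anthracene (DMBA), a carcinogen given by gavage. The GW9662 group was then kept on chow with 0.1% GW9662, an irreversible inhibitor of the nuclear receptor PPARγ, and the control group was kept on chow without it. Each group was represented by a pool of mammary tumor RNA from 5 mice, read on 1 array, so that the differences below were described by size and mice, tumors and arrays cannot be told apart as their source. In tumor RNA of this kind, fewer cells of a type and less RNA per cell cannot be told apart.

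MMPs are zinc-dependent endopeptidases that together can cleave most proteins of the extracellular matrix. They are made as inactive precursors and are held in check by TIMPs, which occupy the active site of the enzyme. In the mammary gland both families take part in ductal branching and in the regression of the gland after lactation, and in carcinomas many MMPs are made by stromal cells around the epithelium. Their messenger RNA level does not show how much active enzyme is present.

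Signals are in arbitrary units on a linear scale. Olfactory receptor genes, which serve smell and are not known to act in the mammary gland, gave a measure of background, and the brightest of their 33 probe sets had a signal of 25.8 on the GW9662 array and 25.2 on the control array, and a signal up to these values was taken as near background. Where only 1 signal was below 100, the fold is a lower bound against 100. The median log2 ratio of GW9662 over control was 0.00 over all named genes, and probe sets of the same gene differed in log2 ratio with an SD of 0.36 over 2639 genes. The labelled tissue showed its epithelial keratins, with Krt8 at 9665 in GW9662 and 9496 in control tumors and Krt18 at 9025 in GW9662 and 10018 in control tumors, whereas the estrogen receptor gene Esr1 was near background at its single probe set (GW9662 13.2, control 13.3).

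Of the 10 genes, 7 had a lower and 3 a higher signal on the GW9662 array at their brightest probe set. The 3 were Timp1, Mmp11 and Mmp9, but the dimmer Mmp9 probe set went the other way. Timp4, Timp3 and Mmp3 were at least 2-fold lower, and Timp1 was the single member that was at least 2-fold higher. A signal of 300 or more on 1 array or both was reached by 7 genes, namely Mmp2, Mmp3, Mmp14 and all 4 inhibitors. Among these 7 genes, 6 were lower and 1 was higher on the GW9662 array by any amount, beside 45.2% and 54.8% of the 6053 genes on the array that reached the same signal. Of the 7, 3 were at least 2-fold lower and 1 was at least 2-fold higher, beside 4.68% and 1.02% of those 6053 genes. At 3-fold, 1 gene was lower and 0 were higher, beside 2.68% and 0.215% of all such genes. The median log2 ratio was -0.56 over the 10 genes, -0.56 over the 6 proteases and -0.83 over the 4 inhibitors.

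**Figure D1:**
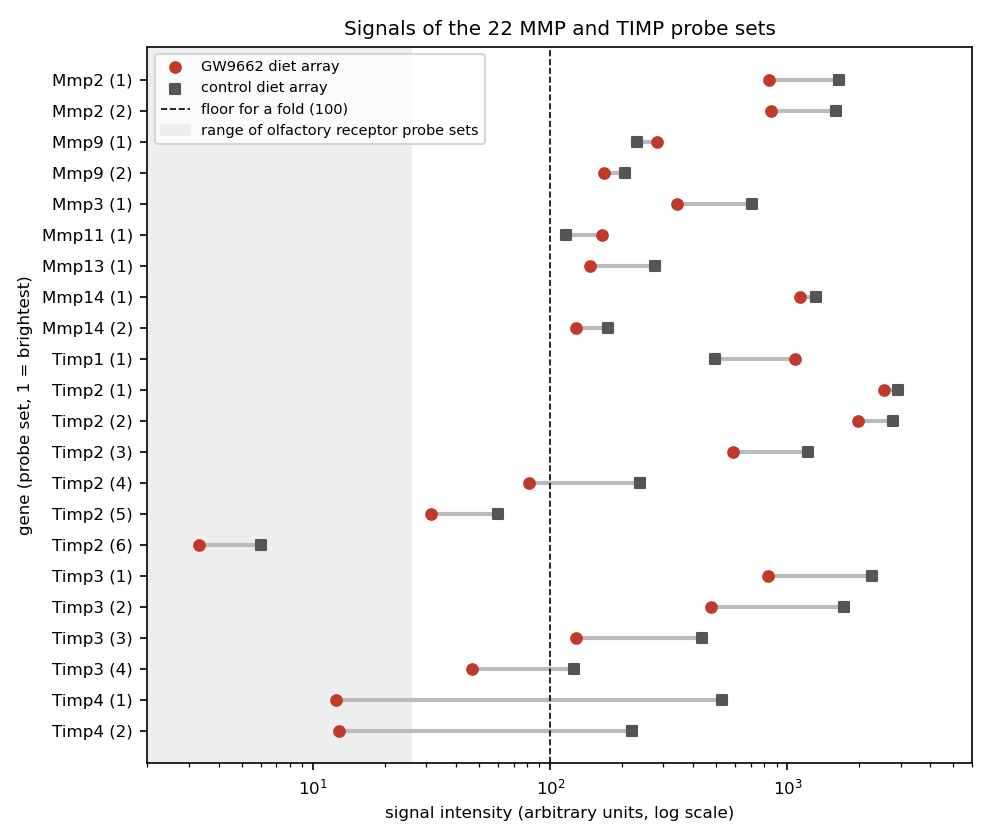
Signals of the 22 probe sets on the GW9662 diet array (red circles) and the control diet array (gray squares) on a log axis in arbitrary units, 1 array of RNA pooled from 5 mice per diet and no error bars. Timp4 reached the shaded olfactory receptor range on the GW9662 array alone (GW9662 12.5 and control 531, GW9662 12.8 and control 220.0), and Timp1 lay to the right of its control signal (GW9662 1076, control 496).

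Near background on both arrays was 1 of the 22 probe sets, the dimmest of Timp2. Another 2 probe sets, both of Timp4, were near background on the GW9662 array only. Below 100 on both arrays were 2 probe sets, both of Timp2, and below 100 on the GW9662 array only were 4, which read Timp2, Timp3 and Timp4. The remaining 16 probe sets had signals of 100 or more on both. Of the 22 probe sets, 19 had a lower and 3 a higher signal on the GW9662 array. Timp2 gave 6 and Timp3 gave 4 of the lower ones, so the count largely repeats single genes. Read at the brightest probe set, 6135 of all 12393 named genes were lower and 6222 higher. No protease was near background at any probe set, but Mmp9, Mmp11 and Mmp13 stayed below 300 on both arrays.

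Mmp2 encodes gelatinase A, a secreted enzyme that degrades denatured collagen and the type IV collagen of basement membranes and is made largely by fibroblasts. Its brightest probe set had a signal of 832.5 on the GW9662 array and 1655 on the control array, 1.99-fold lower and just short of the 2-fold limit. The second Mmp2 probe set had 853 on the GW9662 array and 1600.4 on the control array, 1.88-fold lower. Both probe sets thus gave nearly the same ratio, with log2 ratios of -0.99 and -0.91. Of the 6053 genes with a signal of at least 300, 287 including Mmp2 had a log2 ratio at or below -0.99.

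Precursor MMP2 is activated at the cell surface by the membrane-anchored enzyme encoded by Mmp14, with TIMP2 as the bridge between them. Mmp14 had a signal of 1129.8 on the GW9662 array and 1313.5 on the control array at its brightest probe set, 1.16-fold lower. A dimmer Mmp14 probe set had 128 in GW9662 and 175 in control tumors, 1.36-fold lower. Both differences were smaller than those of Mmp2, and the Mmp2 log2 ratio was 0.77 below that of Mmp14 at the brightest probe sets. At its brightest probe set Timp2 (log2 ratio -0.20) was as close to level as Mmp14 (log2 ratio -0.22). These differences between log2 ratios do not depend on the scaling of the arrays, but Timp2 differed among its own probe sets, as given with the inhibitors.

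Mmp3 and Mmp13 encode stromelysin 1, which cleaves proteoglycans, laminin and other MMP precursors, and collagenase 3, which cuts fibrillar collagen and is a major interstitial collagenase of the mouse. Mmp3 had a signal of 342 on the GW9662 array and 711 on the control array at its single probe set, 2.08-fold lower. Mmp13 had 147 on the GW9662 array and 275.5 on the control array at its single probe set, 1.88-fold lower and below 300 on both. The genes differed by a similar factor, with log2 ratios of -1.06 for Mmp3 and -0.91 for Mmp13. With quantile normalization Mmp3 had a log2 ratio of -0.99 and no longer passed 2-fold.

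Mmp3 and Mmp13 belong to a cluster of MMP genes, with Mmp12 and Mmp1b between them and Mmp1a and Mmp10 beyond Mmp3 in the RefSeq annotation. Mmp12, the macrophage elastase, had signals of 138 and 167 on the GW9662 and control arrays. Mmp10, stromelysin 2, had 54.7 in GW9662 and 17.4 in control tumors, below 100 on both. Mmp1a (GW9662 0.8, control 1.2) and Mmp1b (GW9662 1.2, control 5.1) were near background on both arrays. Among these 6 genes, then, Mmp3 alone reached a signal of 300, Mmp12 and Mmp13 lay between 100 and 300 on both arrays, and the other measured genes gave no readable difference.

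The promoters of Mmp3 and Mmp13 are shown because both hold an AP-1 sequence near the start, the element bound by Fos and Jun proteins. The 100 bases before the start were read from RefSeq (GRCm38.p6), Mmp3 at chr9:7445722-7445821 and Mmp13 at chr9:7272414-7272513, both on the plus strand. Capitals mark the letters TGAGTCA or TGACTCA, which are each other's reverse complement, and TATAAA.
Mmp3: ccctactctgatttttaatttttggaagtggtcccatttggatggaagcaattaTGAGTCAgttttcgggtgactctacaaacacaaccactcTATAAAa
Mmp13: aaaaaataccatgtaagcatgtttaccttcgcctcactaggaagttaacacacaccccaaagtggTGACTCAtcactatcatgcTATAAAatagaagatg

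The AP-1 letters begin at position -46 in Mmp3 and -35 in Mmp13, counted from the annotated start, and the TATAAA letters begin at -7 and -16. Of the 10 genes, 8 were matched to a promoter, and Mmp2 and Mmp9 were not. In these 100 bases, 2 of the 8 promoters held TGAGTCA or TGACTCA on either strand, against 1.88% of all 32851 promoter windows, and the same 2 held TATAAA or its complement TTTATA, against 5.56%. Both motifs together were found in 49 windows, or 0.149%. The pair was picked for its ratios and these letters, so the shares are a description and not a test. Mmp2 was nearer to Mmp3 in log2 ratio (-0.99 against -1.06) than Mmp13 was (-0.91), but had no promoter to compare. A match of letters does not show that a factor was bound, and whether the motif bears on the ratios was not tested.

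The other secreted proteases did not pass 2-fold. Mmp9 encodes gelatinase B, which neutrophils and macrophages release and which shares the gelatin substrates of MMP2. Its brighter probe set had a signal of 280.5 on the GW9662 array and 231 on the control array, 1.21-fold higher. Its dimmer probe set had 169 on the GW9662 array and 206.5 on the control array, 1.22-fold lower. The probe sets gave opposite directions, so none was read for Mmp9. Mmp11 encodes stromelysin 3, known from the stroma around carcinomas and activated inside the cell by furin. It had 166 on the GW9662 array and 116 on the control array at its single probe set, 1.43-fold higher, with both signals close to the floor of 100.

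**Figure D2:**
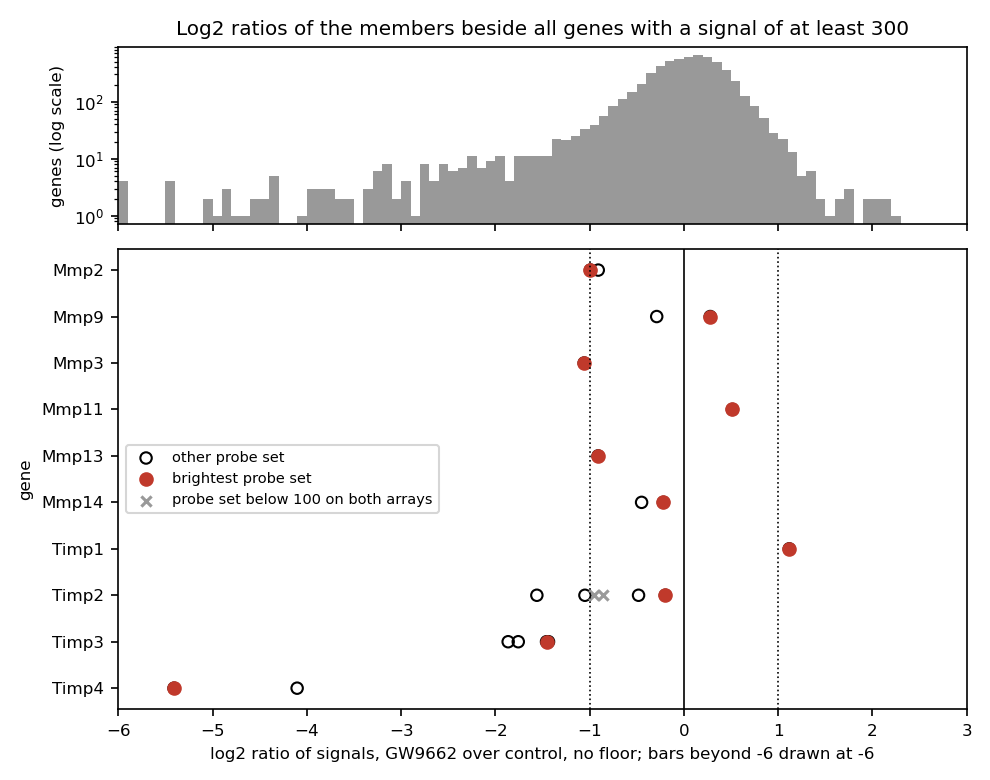
Log2 ratio of signals, GW9662 over control, at every probe set of the 10 genes (lower panel, brightest probe set in red, dotted lines at 2-fold) below a histogram of the 6053 genes that reached a signal of 300 (log count axis). Timp1 (1.12) lies right of the 2-fold line, Timp3 (-1.86 to -1.44) lies left of it at all 4 probe sets, and the Timp4 ratios rest on GW9662 signals near background and are drawn without a floor.

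The inhibitors differed more from each other than the proteases did. Timp1 encodes a secreted inhibitor that is inducible by cytokines and growth factors and that inhibits membrane-type MMPs poorly. It had a signal of 1076 on the GW9662 array and 496 on the control array at its single probe set, 2.17-fold higher. Of the 6053 genes with a signal of at least 300, 37 including Timp1 had a log2 ratio as high as 1.12 or higher. No second probe set was at hand to set beside it.

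Timp3 encodes the inhibitor that stays bound to the matrix and that also inhibits the sheddase ADAM17. Its brightest probe set had a signal of 831 on the GW9662 array and 2281 on the control array, 2.75-fold lower. The second had 476 on the GW9662 array and 1732 on the control array, 3.64-fold lower, and the third had 129 in GW9662 and 435 in control tumors, 3.38-fold lower. The dimmest had 46.6 on the GW9662 array and 126 on the control array, at least 1.26-fold lower. All 4 probe sets were thus lower, and those in the middle of the range passed 3-fold while the brightest did not. Of the 6053 genes, 177 including Timp3 had a log2 ratio at or below -1.46.

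Timp4 encodes the inhibitor with the narrowest tissue range, known from heart, brain and fat. Its brighter probe set had a signal of 12.5 on the GW9662 array and 531 on the control array, at least 5.31-fold lower. The dimmer one had 12.8 on the GW9662 array and 220.0 on the control array, at least 2.20-fold lower. Both GW9662 signals were near background, so that the size of the difference is known only as a bound. Timp4 was the member that passed 3-fold at its brightest probe set.

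Timp2 encodes the inhibitor that is made steadily by many stromal and epithelial cells and that takes part in the activation of MMP2. Its brightest probe set had a signal of 2564 on the GW9662 array and 2939 on the control array, 1.15-fold lower. The second had 1989 in GW9662 and 2776 in control tumors, 1.40-fold lower, and the third had 588 in GW9662 and 1217 in control tumors, 2.07-fold lower. The fourth had 81.3 on the GW9662 array and 239.7 on the control array, at least 2.40-fold lower. All 6 probe sets had a lower GW9662 signal, but those with a dimmer signal among these 4 gave the greater fold, and the other two were below 100 on both arrays (GW9662 31.3 and control 60.4, GW9662 3.3 and control 6.0). Timp2 was therefore close to level or about 2-fold lower depending on the probe set read.

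Counted over the probe sets that reached 300, 6 of the 12 that read a member were at least 2-fold lower, beside 4.80% of all 8464 such probe sets, and 3 were at least 3-fold lower, beside 2.56%. In the other direction, 1 was at least 2-fold higher, beside 1.29%, and 0 were at least 3-fold higher, beside 0.378%. The 6 read Mmp3, Timp2, Timp3 and Timp4, and Timp3 accounts for 3 of them. Probe sets of the same gene share a transcript and are not separate observations.

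Set against each other, Timp1 and Timp3 differed in log2 ratio by 2.58, so that the ratio of Timp1 to Timp3 was 5.96-fold higher on the GW9662 array than on the control array. The ratio of Timp1 to Timp2 was 2.49-fold higher at the brightest probe sets, and that of Timp1 to Timp4 was at least 11.5-fold higher. Relative to Timp1, Mmp3 was 4.52-fold lower, Mmp2 4.32-fold lower, Mmp13 4.08-fold lower and Mmp14 2.52-fold lower. Mmp2 and Timp3 differed by 0.47 in log2 ratio. Apart from the bound for Timp1 to Timp4, these values do not depend on the scaling of the arrays. That bound sets the low Timp4 signal on the GW9662 array to a fixed floor, so it does depend on the scaling. Timp3 was read at its brightest probe set, and its log2 ratio ranged from -1.86 to -1.44 over its probe sets.

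The annotated positions of the inhibitors are given with the signals of the genes around them. Strand and exons were not compared, and whether a probe set of an inhibitor could read an overlapping gene was not tested. Timp1, Timp3 and Timp4 lie inside the synapsin genes Syn1, Syn3 and Syn2, which encode proteins of synaptic vesicles. Syn1 had signals of 2.9 in GW9662 and 5.6 in control tumors, Syn3 had 22.1 in GW9662 and 16.4 in control tumors, and Syn2 had 33.9 in GW9662 and 65.5 in control tumors, so all 3 host genes were below 100. Timp2 overlaps Cep295nl, which was near background (GW9662 3.0, control 2.5). The next protein-coding gene after Timp4 is Pparg, the target of GW9662, with signals of 52.0 in GW9662 and 713 in control tumors, at least 7.13-fold lower, and the nearest before it is Tamm41, which acts in mitochondrial lipid synthesis, with signals of 511 in GW9662 and 417 in control tumors.

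The promoters of the 3 inhibitors that passed 2-fold are shown for comparison with those of the proteases. They are the 100 bases before the RefSeq start (GRCm38.p6), Timp1 at chrX:20870066-20870165 and Timp3 at chr10:86300312-86300411 on the plus strand and Timp4 at chr6:115252206-115252305 on the minus strand. Capitals mark a GC box, GGGCGG or its complement CCGCCC, an element bound by Sp1 and related factors.
Timp1: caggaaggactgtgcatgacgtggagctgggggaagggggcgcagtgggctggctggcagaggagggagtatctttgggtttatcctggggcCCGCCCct
Timp3: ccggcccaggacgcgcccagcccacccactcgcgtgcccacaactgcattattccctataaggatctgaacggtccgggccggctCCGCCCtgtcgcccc
Timp4: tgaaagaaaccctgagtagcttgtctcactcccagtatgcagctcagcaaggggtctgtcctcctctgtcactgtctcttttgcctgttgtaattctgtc

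A GC box was found in these 100 bases in 5 of the 8 matched promoters, namely Mmp11, Mmp14, Timp1, Timp2 and Timp3, against 24.7% of all windows. The Timp4 stretch held none of the motifs searched.

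Other members of the MMP family were dim. Of 17 further MMP genes listed, 12 were measured, 9 of these were below 100 on both arrays, and 0 reached a signal of 300. Over all 12393 named genes, 4187 were below 100 on both arrays and 6053 reached 300. The brightest of the 12 was Mmp23, a membrane-anchored MMP, with signals of 189 and 155 on the GW9662 and control arrays. The other Mmp23 probe set went the other way, with a log2 ratio of -0.49 against 0.29. The membrane-type gene Mmp16 had 138 in GW9662 and 56.3 in control tumors, at least 1.38-fold higher.

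Genes that activate, bind or restrain MMPs, listed together with some for collagen processing, were divided in direction. Of 31 measured genes, 19 reached a signal of 300, and of these 10 were lower and 9 higher, beside 45.2% and 54.8% of all such genes. Their median log2 ratio was -0.02 beside 0.05 over all genes that reached it. At least 2-fold lower was 1 of the 19 and at least 2-fold higher were 0, which is near the 4.68% and 1.02% of all such genes. The gene that passed was Pcolce2, an enhancer of procollagen processing and so from the collagen part of this list. It had signals of 40.3 and 373 on the GW9662 and control arrays, at least 3.73-fold lower. The urokinase gene Plau, whose product starts the plasmin cascade that activates MMPs, had 128 in GW9662 and 264 in control tumors at its brightest probe set. This was 2.07-fold lower but below 300 on both arrays. The other Plau probe set differed less, with a log2 ratio of -0.39 against -1.05. The urokinase receptor gene Plaur had 198 in GW9662 and 215 in control tumors. Reck, a membrane-anchored MMP inhibitor, had 455 in GW9662 and 484 in control tumors, Furin, which activates MMP11 and MMP14, had 467 in GW9662 and 367 in control tumors, and Bsg, an inducer of MMP synthesis, had 3232 in GW9662 and 3518 in control tumors.

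Among the related ADAM and ADAMTS proteases, 2 secreted enzymes went in opposite directions. Adamts5, a major aggrecanase of the mouse, had signals of 149 and 578 on the GW9662 and control arrays, 3.88-fold lower. Adamts1, which cleaves versican, had 1133 in GW9662 and 486 in control tumors, 2.33-fold higher. Adam17, the target of TIMP3 named above, had 734 in GW9662 and 726 in control tumors at its brightest probe set. The 3 Adam17 probe sets disagreed, with log2 ratios from -1.32 to 0.01. Of 16 measured genes, 6 reached a signal of 300, and of these 2 were lower and 4 higher, beside 45.2% and 54.8% of all such genes. Their median log2 ratio was 0.01. Adamts5 and Adamts1 were those of the 6 that passed 2-fold, 1 in each direction, beside 4.68% lower and 1.02% higher of all such genes.

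Of 33 measured genes for matrix proteins that MMPs cleave, 30 reached a signal of 300. Of these, 15 were lower and 15 higher, beside 45.2% and 54.8% of all such genes, with a median log2 ratio of 0.04 beside 0.05. At least 2-fold lower was 1 of the 30 and at least 2-fold higher were 0, shares near the 4.68% and 1.02% of all such genes. The gene that passed was Dcn, which encodes the collagen-binding proteoglycan decorin, with signals of 2925 and 7005 on the GW9662 and control arrays, 2.40-fold lower. Of the fibrillar collagens, Col3a1 had 8005 in GW9662 and 9709 in control tumors, Col1a2 had 5879 in GW9662 and 6428 in control tumors, and Col1a1 had 1120.0 in GW9662 and 678 in control tumors. The basement membrane collagen gene Col4a1 had 7931.5 in GW9662 and 6658.5 in control tumors. Probe sets of Col1a2 (log2 ratios of -0.13 to 0.25) and of Col4a1 (-0.11 to 0.25) went in both directions.

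**Figure D3:**
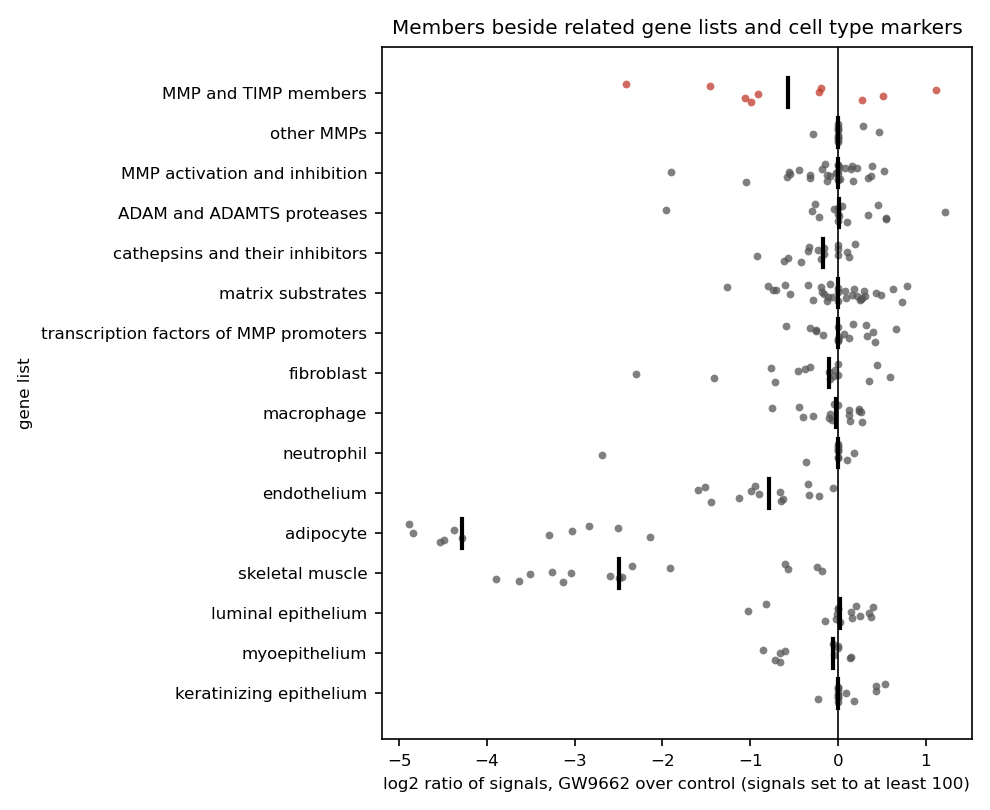
Log2 ratio of signals, GW9662 over control, with signals below 100 set to 100, for the 10 members (red) and for each measured gene of the related lists and of markers of other cell types (gray), 1 point per gene with black bars at the medians. The member median of -0.56 lies between that of the endothelial markers (-0.78) and those of the other proteases, at -0.17 for cathepsins and 0.01 for ADAM and ADAMTS genes.

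Markers of other cell types differed between the pools beside the members. Over all 12393 named genes, 6135 were lower and 6222 higher on the GW9662 array. All 11 measured adipocyte markers were lower, with a summed signal of 6699 on the GW9662 array and 57293 on the control array, and Lep was near background on the GW9662 array. The study had reported Adipoq, Fabp4, Lep, Lipe, Pparg and Retn as lower with GW9662 in these tumors. The adipocyte list was chosen with this known, so its count is a description only. All 15 skeletal muscle markers were lower, with Ttn and Actn3 near background on the GW9662 array. The median log2 ratio of these markers was -2.49 with signals below 100 set to 100, and -3.17 without this floor. Their summed signal was 5416.0 in GW9662 and 17545 in control tumors, but 72.5% of the GW9662 sum came from Tpm2, a tropomyosin also made by smooth muscle and myoepithelium (GW9662 3926, control 4459). Without Tpm2 the other 14 summed to 1490 in GW9662 and 13087 in control tumors, 8.78-fold lower. All 14 endothelial markers were lower (GW9662 4185, control 7252), with none near background on both arrays. The part of these cells in the lower signals of Timp4, Timp3, Mmp2 and Mmp3 was not tested.

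Fibroblasts are a main source of MMP2, MMP3 and TIMP3. Of 16 fibroblast markers, 12 were lower and 4 higher, beside 6135 lower and 6222 higher of all 12393 named genes. Their median log2 ratio was -0.21 without a floor and -0.1 with it, and their summed signals were 22512 and 25967 on the GW9662 and control arrays. Acta2, which is also in the myoepithelial list, gave 41.2% of the GW9662 sum. Without Acta2 the other 15 summed to 13237 in GW9662 and 16408 in control tumors, 1.24-fold lower. Of the 14 fibroblast markers that reached a signal of 300, 2 were at least 2-fold lower and 0 higher, beside 4.68% and 1.02% of all such genes. The markers that passed 2-fold were Dpt, which encodes the matrix protein dermatopontin (GW9662 513, control 2522, 4.92-fold lower), and Fap, a surface protease of activated fibroblasts (GW9662 259, control 691, 2.66-fold lower). Pdgfrb, a receptor of mural cells and fibroblasts, had 1841 in GW9662 and 1444 in control tumors at its brightest probe set. Its other probe set went the other way, with a log2 ratio of -0.06 against 0.35. S100a4, which is also made by leukocytes, had 2368 in GW9662 and 1573 in control tumors. Tcf21 was near background on both arrays. The part of fibroblasts in the differences of the members was not tested.

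Leukocytes are a main source of MMP9 and MMP12. The 16 macrophage markers were divided, 8 lower and 8 higher, much as all 12393 named genes were (6135 lower, 6222 higher). Their summed signals were 24662 and 25619.5 on the GW9662 and control arrays, and Itgam was near background on both. The 11 measured neutrophil markers summed to 8229 in GW9662 and 8518 in control tumors, most of it Lcn2 (GW9662 7501, control 6587), which mammary epithelium also makes. Without Lcn2 the other 10 summed to 728 in GW9662 and 1931 in control tumors. The brightest of these in control tumors was Ltf, the iron-binding protein lactoferrin of neutrophil granules and milk, with 201 in GW9662 and 1291 in control tumors, 6.43-fold lower. Ltf gave most of the difference between the sums without Lcn2. Of the 11, 5 were lower and 6 higher, with a median log2 ratio of 0.10. On both arrays 5 of the 11 were near background and 7 were below 100. The 3 that reached a signal of 300 had a median log2 ratio of -0.36. The part of leukocytes in the values of Mmp9 and Mmp12 was not tested.

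Of 15 luminal epithelial markers, 11 reached a signal of 300, and of these 4 were lower and 7 higher, with a median log2 ratio of 0.17. Among all genes that reached 300, 45.2% were lower and 54.8% higher, 4.68% at least 2-fold lower and 1.02% at least 2-fold higher. Summed over all 15, the signal was 55458 in GW9662 and 54126 in control tumors. Elf5, a transcription factor of the alveolar lineage, was the luminal marker that passed 2-fold, with 2040.0 in GW9662 and 4138 in control tumors, 2.03-fold lower. Of 11 myoepithelial markers, 9 reached a signal of 300, and of these 6 were lower and 3 higher, beside 45.2% and 54.8% of all such genes. Of the 9, 0 passed 2-fold, beside 4.68% lower and 1.02% higher, and the median log2 ratio was -0.60. Myoepithelial markers summed to 20395 in GW9662 and 22998 in control tumors. Krt5 had 793 in GW9662 and 1256 in control tumors, and Cnn1, a calponin of contractile cells, had 611 in GW9662 and 1100 in control tumors. Acta2 had 9275 in GW9662 and 9559 in control tumors at its brightest probe set. Without Acta2 the other 10 summed to 11119 in GW9662 and 13439 in control tumors, 1.21-fold lower. The part of myoepithelial cells in the differences of the members was not tested.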

How the data were processed

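For each diet the authors pooled tumor RNA from 5 mice, hybridized biotin-labelled cRNA to 1 Affymetrix mouse GeneChip array and produced raw data with the GeneChip software. What they deposited is a linear signal intensity for every probe set of each array. The way probe pairs were combined and the arrays scaled is not given in the sources used here. Signals were used as deposited, and the 2% trimmed mean of both arrays was 500.2. Names came from the platform annotation, updated by gene identifier to RefSeq symbols of GRCm38.p6. A single gene was named for 20380 probe sets, several genes for 691 and none here for 1555, and 64 were array controls. Where a gene had several probe sets, the brightest by mean signal was read, which gave 12393 genes. A signal of 0 was read as 0.1 on the log2 scale.

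With 1 pooled array per diet no test could be run, and the number of arrays limits the precision of all values. Calls were made by size, at 3-fold and at 2-fold, for genes that reached a signal of 300 on 1 array or both. A fold with 1 of its signals below 100 is a lower bound against 100, and no fold was given where both were below it. All 10 members were named at every probe set. From the related lists the genes that passed 2-fold and up to 4 of the brightest could be named, together with neighbours of the members. Members and lists were chosen with earlier results of these data known, and all other list genes named were chosen after their values were seen. Other settings were centring, quantile normalization, floors on low signals, an added constant, other signal minimums and folds, and other ways to read a gene with several probe sets. Promoter sequences were taken from RefSeq. Python 3.11.15 was used with pandas 2.3.3, numpy 2.4.6 and matplotlib 3.10.9.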

Additional observations from a re-analysis of the deposited data

How the results depend on the processing

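Each member's log2 ratio was read under 8 other settings. Of these 80 values, 78 kept their sign and 71 moved by less than the SD of 0.36 between probe sets of a gene. Many of them could not move. For the 4 members with 1 probe set, the other ways to read a gene return the same value. The floors could change Timp4 alone, and centring shifted every gene by 0.0023. These counts therefore overstate how far the ratios were put to the proof. The 2 with another sign were both of Mmp9, -0.29 at its second brightest probe set and -0.0044 as the median over its probe sets. Of the 9 that moved by more, 6 were of Timp4, whose GW9662 signal was below 100, and 1 each was of Mmp9, Timp2 and Timp3. As the median over probe sets, the inhibitors had a median log2 ratio of -1.26 and Timp2 had -0.91. Reading genes by the median or by the sum over probe sets, 2 members were at least 3-fold lower, in place of 1. At 2.5-fold, 2 members were lower and 0 were higher, and at 1.5-fold 4 were lower and 1 was higher, which follows from the fold itself. At 2-fold, 2 members were lower in place of 3 with quantile normalization and at the second brightest probe set. Signal minimums of 100, 200 and 500 changed no count.

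Leaving out an array was not possible. No paired analysis was possible because each diet had 1 array. Low signal limits Timp4, near background on the GW9662 array, and Mmp9, Mmp11 and Mmp13, below 300 on both arrays.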

Other observations

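Of 16 measured genes for lysosomal cathepsins and the cystatins that inhibit them, 12 reached a signal of 300. Of these 12, 9 were lower and 3 higher on the GW9662 array, beside 45.2% lower and 54.8% higher of all such genes, the median log2 ratio was -0.21, and 0 passed 2-fold, beside 4.68% lower and 1.02% higher. Ctsb, the lysosomal cysteine protease cathepsin B, had signals of 3617.5 and 5548 on the GW9662 and control arrays, and Ctsd, cathepsin D, had 2663 in GW9662 and 3944 in control tumors. The secreted inhibitor gene Cst3 had 6366 in GW9662 and 8017 in control tumors, whereas the intracellular inhibitor gene Cstb had 6642 in GW9662 and 5780.2 in control tumors.

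Of 18 measured genes for transcription factors that act at MMP promoters, 13 reached a signal of 300. Of these 13, 5 were lower and 8 higher, near the 45.2% and 54.8% of all such genes, and the median log2 ratio was 0.07. Past 2-fold were 0, beside 4.68% lower and 1.02% higher of all such genes. The AP-1 genes that reached 300 were Fos (GW9662 1939.6, control 1442), Jun (GW9662 1719, control 1570.4), Jund (GW9662 1859, control 1479) and Junb (GW9662 345, control 343), with log2 ratios of 0.43, 0.13, 0.33 and 0.01. At their brightest probe sets those of Jun, Jund and Junb were under the SD of 0.36 between probe sets of a gene. The other Jun probe set had a log2 ratio of 0.52, above that SD. The SD was taken within these arrays and does not measure differences between tumor pools. Fosb, Fosl1 and Fosl2 were below 100 on both arrays.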
